A study of Mus musculus with 14 samples.

Results

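The genotype by day interaction describes how far the difference between knockout and wild-type T cells changed between day 7 and day 14 of Th2 culture. For each gene it is the knockout minus wild-type log2 difference at day 14 minus the same difference at day 7. All 14 RNA-seq libraries enter it, and 10 of the 11591 genes tested passed an adjusted p under 0.05 (quasi-likelihood test of edgeR, with p-values adjusted by Benjamini-Hochberg over all genes tested), which is 0.0863% of them. The interaction was positive in 7 of the 10 (0.0604% of genes tested) and negative in 3 (0.0259%). A positive value means that the knockout stood higher relative to wild type at day 14 than at day 7, and a negative value that it stood lower.

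Mouse CD4+ TCRb+ T cells of strain C57BL/6J were sorted from splenocytes as naive cells, activated and driven towards the Th2 state in culture, and paired-end sequenced as total RNA. Each genotype gave 4 libraries after 7 days of culture and 3 after 14 days. The genotype label Ago134 names a combined loss of Ago1, Ago3 and Ago4, compared with WT littermates. The series text gives the later time once as 15 days and elsewhere as 14. Naive samples of day 0, which the text also mentions, were not analysed here. Separate mice or cultures are not named for the libraries of a group, so p-values measure only the spread between these libraries, which may be technical. The sources used here do not describe the alleles or the cells they act in.

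Argonaute proteins load microRNAs and with them repress matching messenger RNAs. Th2 cells drive allergy and defence against worms, and make the cytokines IL-4, IL-5 and IL-13 under the transcription factor GATA3. As T cells divide and mature they shut down genes of the naive state, such as those for homing to lymph nodes, and switch on effector genes and inhibitory receptors.

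The libraries held 23326248 to 35803197 counted reads, and 12534 to 13241 genes had a read in each. The knockout was visible in Ago1, which had 128 to 141 reads per library in wild type at day 7 and 67 to 100 at day 14, and 0 reads in all 4 knockout libraries at day 7 and 0, 0 and 2 at day 14. Ago3 ran lower in knockout at both days without overlap (1.73 to 2.16 against 2.84 to 4.43 CPM at day 7, 1.21 to 1.57 against 2.04 to 4.42 CPM at day 14). Ago4, also labelled as lost, stood at 2.74 to 3.53 CPM in knockout and 0.358 to 0.836 CPM in wild type at day 7, so its reads go against the label. At day 14 Ago4 ran from 2.38 to 4.76 CPM in knockout and from 0.372 to 2.81 CPM in wild type, where the groups overlap. Whether these reads lie in the deleted part of the genes cannot be seen in gene counts. Genes of CD4 T cell identity summed to 7066 CPM or more in every library. CPM is the count of a gene per M reads of its library, with totals scaled by TMM.

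A pair of libraries stood apart from the others of their groups. Wild-type day 14 library 3 had a G2 and M phase level of 2.60, against -0.83 and -1.02 in the other wild-type libraries of that day and 2.52 to 3.18 in knockout. This level is the median log2 deviation of the list's genes from their means over all libraries. Knockout day 7 library 4 had an interferon-stimulated gene level of 2.08 against -0.10 to 0.69 in the other knockout libraries of day 7. The names of the deposited tables hold an identifier and a number after the letter L. The libraries were ordered by identifier, and a new set was started where the L number repeated, which gave 2 sets. These sets are inferred, and what they stand for is not stated. By this rule all knockout libraries of day 7 belong to one set and all knockout libraries of day 14 to the other. Wild type has both sets at both days. The change in the knockout between the days and this set therefore cannot be told apart within the knockout, and no set holds all 4 groups, so no interaction can be computed within a set.

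**Figure D1:**
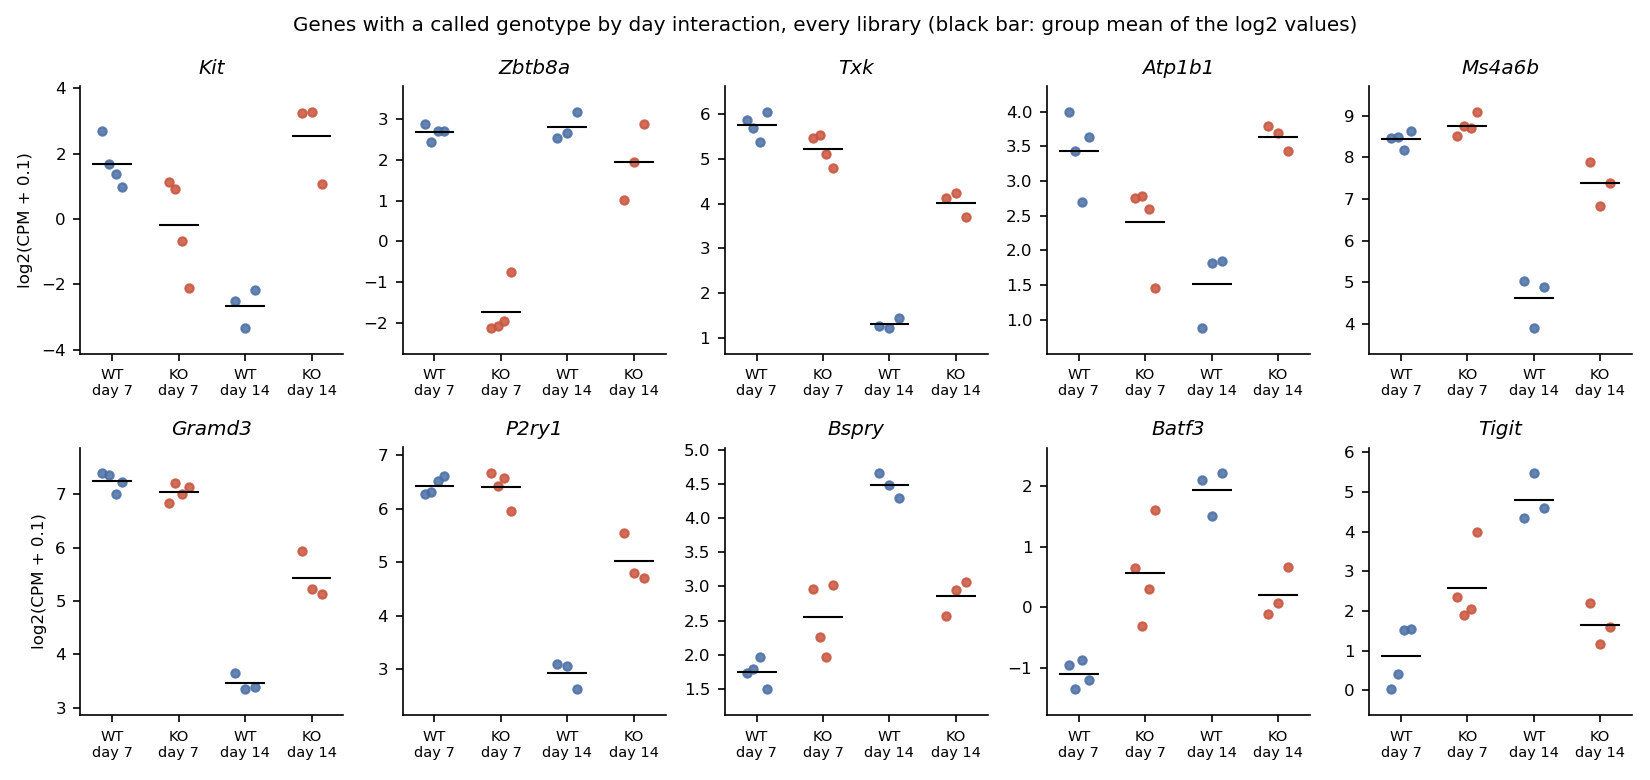
Level of each of the 10 called genes in every library, as log2(CPM + 0.1), with points for libraries (blue wild type, red knockout) and a black bar for the group mean of the log2 values. In Txk, Ms4a6b, Gramd3 and P2ry1 the wild-type libraries of day 14 lie at the bottom of the panel, while in Bspry and Tigit they lie at the top.

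Most of the positive interactions came from genes whose RNA fell steeply over time in wild type and less in the knockout. Txk, which encodes a Tec family kinase of T cell receptor signalling, had the smallest p. Ms4a6b encodes a membrane protein of T cells that spans the membrane several times, Gramd3 a protein with a lipid-binding GRAM domain, and P2ry1 a receptor for extracellular ADP. None of the 4 was called between genotypes at day 7, and each was called higher in the knockout at day 14. In bulk RNA, fewer cells of a type and less RNA per cell cannot be told apart, here and in what follows.

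The 250 bases before the annotated start of Txk and P2ry1 are shown as genes that were higher in the knockout at day 14 and not at day 7, and those of Tigit as the gene with the most negative interaction among the 10. They come from RefSeq on GRCm38.p6, on the strand of the gene, 5′ to 3′. Capitals mark matches on either strand to the motifs searched. The site of STAT factors was searched as TTCNNNGAA. The cell cycle element known as CHR was searched as TTTGAA. The box bound by the factor NF-Y, which many promoters of dividing cells carry, is CCAAT. The site of GATA factors, the family of the Th2 regulator GATA3, was searched as AGATAA. For the AP-1 family, which includes Batf3, the letters were TGANTCA. The E-box, bound by factors such as MYC, was searched as CACGTG. The interferon response element ISRE was searched as well.
Txk, chr5:72752778-72753027, minus strand: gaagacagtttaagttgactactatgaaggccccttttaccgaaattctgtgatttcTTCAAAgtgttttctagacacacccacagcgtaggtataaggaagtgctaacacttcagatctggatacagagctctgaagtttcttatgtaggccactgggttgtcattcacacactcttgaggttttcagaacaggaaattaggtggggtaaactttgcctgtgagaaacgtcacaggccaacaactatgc
P2ry1, chr3:61002535-61002784, plus strand: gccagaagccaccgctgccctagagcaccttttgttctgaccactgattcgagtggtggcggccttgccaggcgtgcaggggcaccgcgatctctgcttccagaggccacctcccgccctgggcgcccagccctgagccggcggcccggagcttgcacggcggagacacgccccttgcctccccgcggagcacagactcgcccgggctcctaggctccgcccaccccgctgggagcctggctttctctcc
Tigit, chr16:43664185-43664434, minus strand: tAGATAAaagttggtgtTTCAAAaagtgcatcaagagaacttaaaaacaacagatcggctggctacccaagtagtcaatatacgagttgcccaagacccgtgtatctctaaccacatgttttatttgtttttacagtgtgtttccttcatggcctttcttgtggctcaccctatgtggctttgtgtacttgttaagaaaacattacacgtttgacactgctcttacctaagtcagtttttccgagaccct
The Txk window shown holds 1 CHR match, a letter pattern found in 16% of all 32851 windows of the table. A second annotated start of Txk has a window of its own, not shown (chr5:72736603-72736852), with 1 CCAAT and 1 GATA match. The Tigit window holds 1 CHR and 1 GATA match (GATA in 9.99% of all windows), and the P2ry1 window holds none of the 7 patterns. CCAAT was found in 7 of 26 windows of genes with a positive interaction and in 7 of 19 windows of genes with a negative one, among the 34 genes described here (29 of them in the table), against 33.8% of all windows. A match is a description of these letters only.

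Txk (chr5:72695978-72752777) stood at 58.7, 51.4, 41.6 and 66.2 CPM in the wild-type libraries of day 7 and at 44.3, 45.9, 34.2 and 27.5 CPM in the knockout. At the later day it stood at 2.31, 2.24 and 2.63 CPM in wild type and at 17.2, 18.9 and 12.8 CPM in the knockout. The groups overlapped at day 7 and were apart at day 14, where every knockout library exceeded every wild-type library. The knockout minus wild-type difference was -0.52 ± 0.22 (log2, SE) at day 7 and 2.77 ± 0.28 at day 14, an interaction of 3.29 ± 0.35 (adjusted p = 0.00169). Over time Txk fell by 4.51 (log2) in wild type and fell by 1.22 in the knockout.

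Ms4a6b (chr19:11516512-11531256) stood at 349 ± 44.3 CPM (SD, n = 4) in wild type and 438 ± 76.9 CPM in knockout at day 7. At day 14 its wild-type libraries held 32.5, 15.0 and 29.7 CPM and its knockout libraries 239, 115 and 168 CPM. Its interaction was 2.42 ± 0.40 (adjusted p = 0.037), and the groups overlapped only at day 7. Ms4a6b has close relatives in its gene family, so reads shared with them make its level less certain.

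Gramd3, on chromosome 18, held 152 ± 17.8 CPM in wild type and 133 ± 14.9 CPM in knockout at day 7. By day 14 it held 12.5, 10.1 and 10.4 CPM in wild type and 60.8, 37.4 and 35.0 CPM in knockout, an interaction of 2.21 ± 0.30 (adjusted p = 0.0152). P2ry1 (chr3:61002795-61008982) was level at day 7, at 86.6 ± 9.68 CPM in wild type and 86.1 ± 17.2 CPM in knockout. At day 14 its wild-type libraries held 8.44, 8.18 and 6.06 CPM and its knockout libraries 46.5, 27.6 and 26.1 CPM, an interaction of 2.15 ± 0.35 (adjusted p = 0.037). Neither gene's groups overlapped at day 14, and both overlapped at day 7.

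Kit and Atp1b1 fell over time in wild type and rose over time in the knockout. Kit (chr5:75574916-75656722) encodes the receptor for stem cell factor, a hallmark of mast cells and progenitors. Its wild-type libraries had 6.35, 3.12, 2.52 and 1.88 CPM at day 7 and its knockout libraries 2.11, 1.79, 0.533 and 0.133 CPM. At day 14 wild type had 2, 0 and 4 reads, or 0.066 CPM on average, and the knockout 320, 291 and 67 reads, or 7.02 ± 4.33 CPM (SD, n = 3). The interaction was 8.23 ± 1.32 (adjusted p = 0.037), and its size rests on 6 reads in wild type at day 14. Atp1b1 (chr1:164437109-164458355) encodes a beta subunit of the sodium-potassium pump. It stood at 11.3 ± 3.93 CPM in wild type and 5.52 ± 1.94 CPM in knockout at day 7, and at 1.75, 3.44 and 3.49 CPM against 13.8, 12.9 and 10.7 CPM at day 14. Its interaction was 3.13 ± 0.54 (adjusted p = 0.0479), with no overlap at day 14 only. Atp1b1 overlaps Nme7 on the other strand, and the sources used here do not say whether strand was counted.

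Of 13 mast cell and basophil markers 6 passed the count filter, with a median interaction of 0.93 (1.64 with groups at 0 reads set to 3 counts over the group), against 0.06 over all genes tested. Kit was called among them. Cpa3, a mast cell carboxypeptidase also made in Th2 cultures, stood at 5.58, 1.00 and 4.70 CPM in wild type and at 120, 12.9 and 23.8 CPM in knockout at day 14. At day 7 Cpa3 stood at 47.0 CPM in wild type and 64.8 CPM in knockout on average, and its interaction was 3.34 ± 0.93 (adjusted p = 0.247), and 1.83 without knockout day 14 library 1. At day 7 several markers were lower in knockout than in wild type, as Kit was (122 against 448 reads over the 4 libraries). Tpsb2 had 17 against 104 reads, Cma1 27 against 63, Fcer1a 5 against 26 and Gata2 5 against 18, while Hdc, for the enzyme that makes histamine, had 707 against 425. At day 14 wild type had 3 reads of Tpsb2, 0 of Cma1 and 3 of Fcer1a, and Hdc had 199 reads in wild type and 173 in knockout. Fcer1a, Cma1 and Tpsb2 had 0 reads in all knockout libraries of day 14, where Kit had 678 and Cpa3 5254 (332 in wild type). Ms4a2, Mcpt4, Mcpt8 and Prss34 had 0 reads in every library of both genotypes and days, so they do not tell the groups apart. The part of mast cells or basophils in the Kit values was not tested. The summed level of the list ran from 292 to 774 CPM in knockout and from 56.6 to 482 CPM in wild type at day 14. Cyp11a1, a steroid-making enzyme in the list, held 41344 of these reads in knockout and 19820 in wild type at day 14. At day 7 the sum ran from 40.2 to 76.0 CPM in wild type and from 63.1 to 91.6 CPM in knockout.

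Zbtb8a was the called gene whose genotype difference shrank. It encodes a zinc finger protein with a BTB domain and lies on chr4:129353628-129378116, 2.82 Mb from the Ago1, Ago3 and Ago4 genes. At day 7 the wild-type libraries held 7.24, 5.37, 6.45 and 6.44 CPM and the knockout 0.129, 0.135, 0.157 and 0.487 CPM. At day 14 wild type held 5.76, 6.25 and 8.99 CPM and the knockout 1.92, 3.79 and 7.24 CPM, where the groups overlap. The difference was -4.83 ± 0.51 at day 7 and -0.70 ± 0.47 at day 14, an interaction of 4.13 ± 0.68 (adjusted p = 0.037). Within the knockout Zbtb8a rose by 4.26 (log2), while in wild type its change was 0.14 ± 0.43. It overlaps Zbtb8os on the other strand.

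In Tigit, Bspry and Batf3 the genotype difference turned from higher to lower in the knockout. Tigit (chr16:43648867-43664146) encodes an inhibitory receptor of activated T cells. It stood at 0.919, 1.24, 2.75 and 2.80 CPM in wild type and at 4.99, 3.61, 4.01 and 15.8 CPM in knockout at day 7. By day 14 it stood at 20.2, 44.1 and 24.0 CPM in wild type and at 4.52, 2.14 and 2.90 CPM in knockout, so the groups were apart at both days in opposite order. Tigit rose by 3.94 (log2) over time in wild type, while its change in the knockout was -1.15 ± 0.56, an interaction of -5.09 ± 0.82 (adjusted p = 0.037).

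Bspry (chr4:62480053-62497298), which encodes a B-box and SPRY domain protein, stood at 3.27 ± 0.445 CPM in wild type and 6.05 ± 2.12 CPM in knockout at day 7. Its day 14 level stood at 25.2, 22.3 and 19.6 CPM in wild type and at 5.82, 7.65 and 8.23 CPM in knockout, an interaction of -2.51 ± 0.41 (adjusted p = 0.037). Batf3 (chr1:191097847-191108945), a transcription factor of the AP-1 family, was a low gene, with 46 reads in wild type and 157 in knockout over the libraries of day 7. Its mean was 0.373 CPM in wild type and 1.56 CPM in knockout at day 7, and 3.82 CPM and 1.09 CPM at day 14. The interaction of Batf3 was -3.84 ± 0.64 (adjusted p = 0.0372), and neither gene's groups overlapped at either day. In Tigit, knockout day 7 library 4 was the highest of its group, and it was also the highest in MHC class II genes, with a list level of 1.93 against -0.12 to 0.60 in the other knockout libraries of day 7.

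Of the 10 called genes 8 were also called between the genotypes at day 14, where 1.42% of all genes tested were, and 1 was called at day 7 (Zbtb8a), where 0.0949% were. The libraries of the genotypes did not overlap in 9 of the 10 at day 14 (15.0% of all genes tested) and in 4 at day 7 (22.2%). Since the interaction is built from both differences, these shares describe the genes and are no separate test. Over time 5 of the 10 moved the same way in both genotypes but less in the knockout, 1 moved the same way and more, and 4 moved in opposite ways, against 46.1%, 31% and 22.9% of all genes tested.

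**Figure D2:**
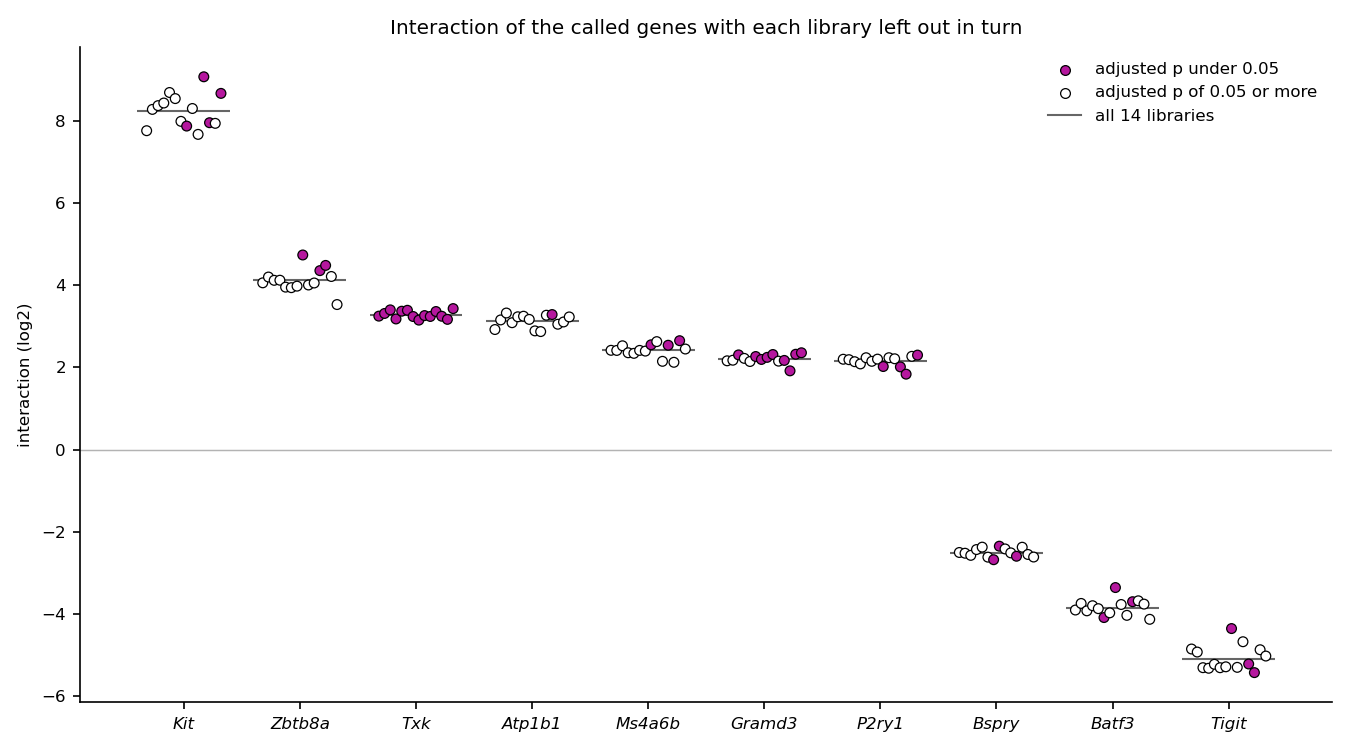
Interaction (log2) of the 10 called genes in 14 fits that each leave out 1 library, with points filled where the adjusted p was under 0.05 and a grey line for the value with all 14 libraries. Txk is filled in all 14 fits, while Atp1b1 is filled in 1, and no gene crosses 0.

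Txk was called in all 14 fits that left out 1 library. It kept its call with a term for the set of table identifiers (3.20, adjusted p = 0.014). The other 9 lost theirs with that term (adjusted p from 0.12 to 0.266). The knockout libraries of each day share the same set, so that term is estimated from wild type alone and taken to be equal in the knockout. It therefore cannot show whether the knockout values depend on the set. The log2 interactions with that term, and without it in brackets, were 2.10 (2.21) for Gramd3, 2.26 (2.15) for P2ry1 and 2.20 (2.42) for Ms4a6b. They were 7.39 (8.23) for Kit, 2.98 (3.13) for Atp1b1 and 3.99 (4.13) for Zbtb8a. For the negative genes they were -4.42 (-5.09) for Tigit, -2.50 (-2.51) for Bspry and -4.09 (-3.84) for Batf3. The number of calls was 1 without wild-type day 7 library 1, 2 or 4, knockout day 7 library 1 or wild-type day 14 library 2, was 2 without wild-type day 7 library 3 or wild-type day 14 library 1, was 3 without knockout day 7 library 2 or 3, was 4 without knockout day 14 library 2 or 3, was 10 without knockout day 7 library 4, was 16 without knockout day 14 library 1, and was 380 without wild-type day 14 library 3.

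**Figure D3:**
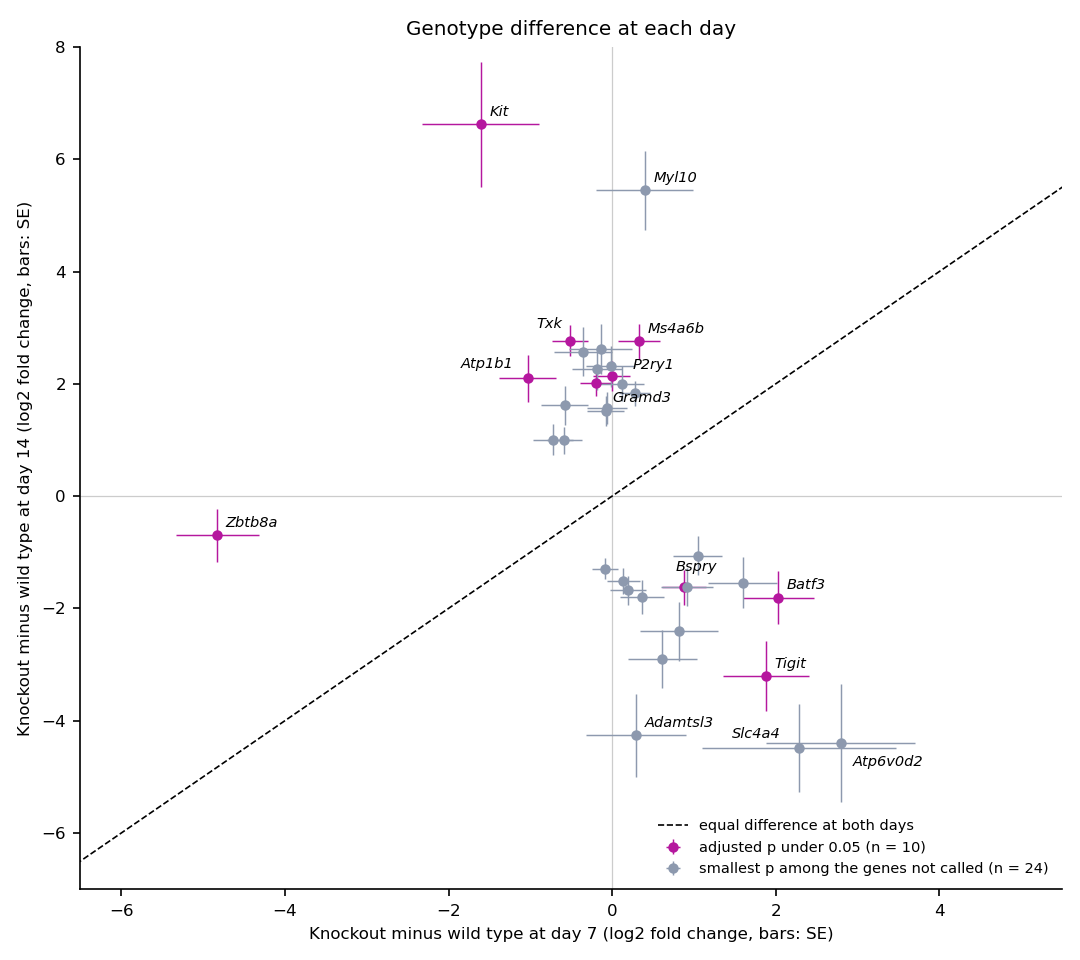
Knockout minus wild-type log2 fold change at day 7 (horizontal) and day 14 (vertical) with SE bars, for the 10 called genes and the 24 genes with the next smallest p. The vertical distance from the dashed line of equal differences is the interaction, and the 19 genes with a positive interaction lie above the line, the 15 with a negative one below it.

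Behind the called genes, the 12 positive and 12 negative genes with the next smallest p and at least 5 CPM in a group did not pass the threshold (adjusted p from 0.0594 to 0.133 and from 0.0667 to 0.123). Together with the called genes, 23 of the 34 had a log2 difference at day 14 at least 2 times the size of that at day 7, 10 had differences of opposite sign with neither 2 times the other in log2 size, and 1 (Zbtb8a) had a difference at day 7 at least 2 times the size of that at day 14.

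Among the positive ones, Myl10, a myosin light chain gene, stood at 0.257 CPM in wild type and 0.350 CPM in knockout at day 7 and at 0.176 CPM against 7.93 CPM at day 14 (interaction 5.05 ± 0.89, adjusted p = 0.0594). Hsd11b1, whose enzyme regenerates active glucocorticoid, held 46.5 and 46.0 CPM at day 7. At day 14 it held 19.4, 35.0 and 69.4 CPM in wild type and 186, 168 and 261 CPM in knockout (interaction 2.33 ± 0.47, adjusted p = 0.0854). Cdkn2c, which encodes the CDK4 and CDK6 inhibitor p18, went from 11.4 and 13.8 CPM to 10.6 and 37.7 CPM in wild type and knockout (interaction 1.55 ± 0.29, adjusted p = 0.069).

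Fbln1, for the matrix protein fibulin-1, had means of 19.2 and 16.9 CPM at day 7 and 9.95 and 47.7 CPM at day 14 (wild type and knockout, interaction 2.44 ± 0.47, adjusted p = 0.0698). Gpr183, the receptor that guides lymphocytes by oxysterols, had means of 538 and 509 CPM at day 7 and 26.5 and 76.2 CPM at day 14 (interaction 1.60 ± 0.35, adjusted p = 0.106). Depdc1b, Cacna2d4, Sema4a, Rpp25, Rgs3, Arhgef39 and Clybl complete the 12, and in each of the 12 the knockout libraries of day 14 lay above all wild-type libraries of that day. This non-overlap, found in 15.0% of all genes tested, describes genes chosen for a small interaction p.

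Among the negative ones, Nfil3, a transcription factor linked to type 2 cytokine expression, was the most abundant. It stood at 323 ± 76.2 CPM in wild type and 370 ± 38.5 CPM in knockout at day 7. At day 14 it stood at 1434 ± 179 CPM in wild type and 448 ± 157 CPM in knockout (interaction -1.87 ± 0.34, adjusted p = 0.0667). Plcd1, a phospholipase C, held 117, 116 and 115 CPM in wild type and 30.1, 45.4 and 46.4 CPM in knockout at day 14, from means of 6.71 and 7.38 CPM at day 7 (interaction -1.65 ± 0.31, adjusted p = 0.069).

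Foxq1, a forkhead factor, had means of 0.872 and 1.65 CPM at day 7 and 23.6 and 7.72 CPM at day 14 (wild type and knockout, interaction -2.53 ± 0.46, adjusted p = 0.0667). Plin2, which coats lipid droplets, had means of 26.1 and 53.8 CPM at day 7 and 202 and 97.0 CPM at day 14 (interaction -2.10 ± 0.45, adjusted p = 0.106). Gsn, for the actin-severing protein gelsolin, had means of 219 and 206 CPM at day 7 and 440 and 179 CPM at day 14 (interaction -1.21 ± 0.25, adjusted p = 0.0855). Stom, Rbm47, Atp6v0d2, Fbxo2, Adamtsl3, Slc4a4 and Pdcd1 complete the 12, and in each of the 12 all knockout libraries of day 14 lay below all wild-type libraries, in genes chosen the same way (15.0% of all genes tested do not overlap at day 14). Slc4a4 had 2 reads over the 4 wild-type libraries of day 7, so no fold is given for it.

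**Figure D4:**
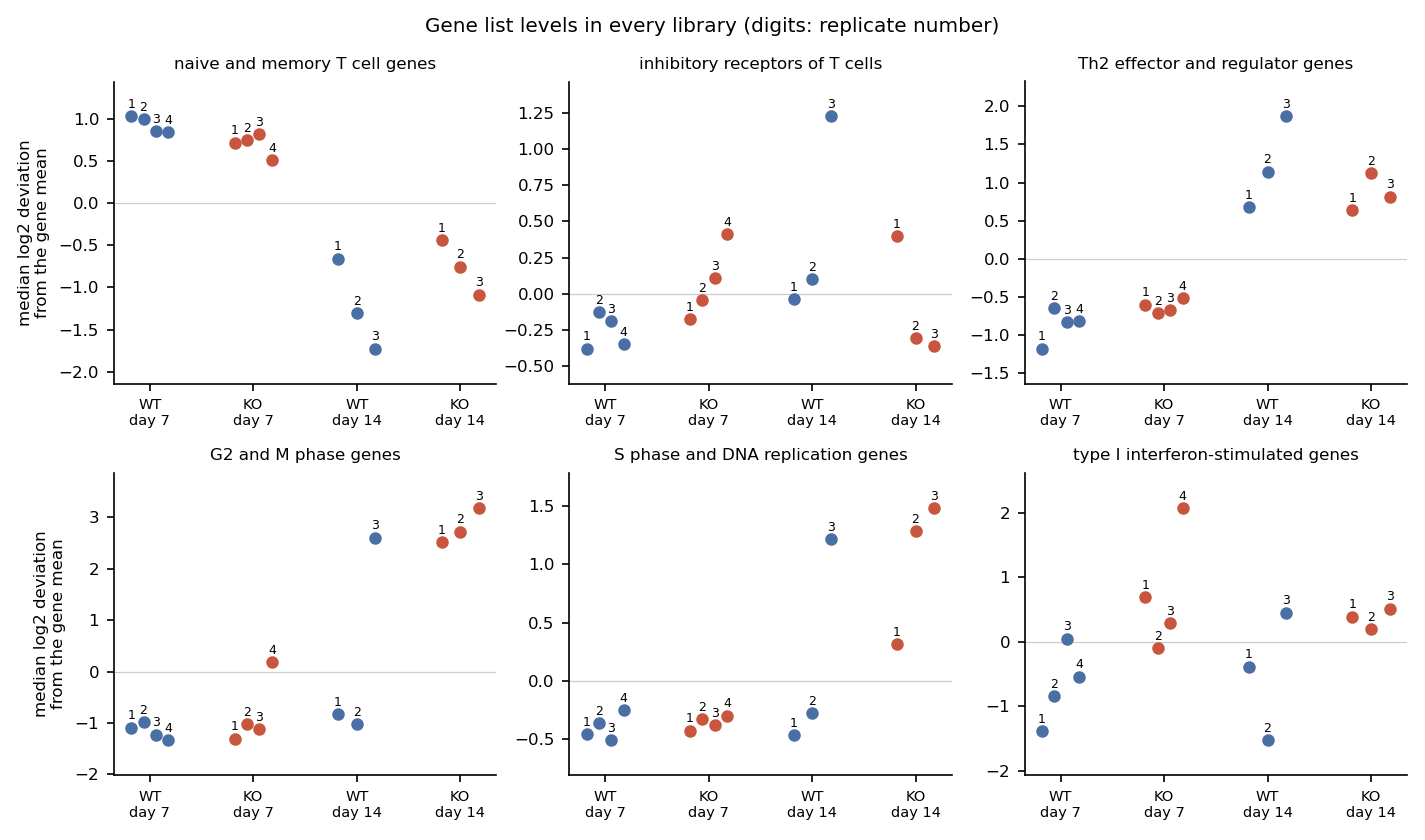
Level of 6 gene lists in every library (median log2 deviation of the list's tested genes from their means over all libraries), with points for libraries and digits for replicate numbers. Wild-type day 14 library 3 lies with the knockout libraries of that day in both cell division lists, at 2.60 and 1.22, and knockout day 7 library 4 is the highest of all in interferon-stimulated genes, at 2.08.

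Txk and Ms4a6b belong to a list of genes of the naive and memory T cell state. Of 26 genes 25 were tested, and 2 were called, both positive (0.0604% of all genes tested). A positive interaction was found in 21 of 25 (6456 of 11591 over all genes tested), with a median of 0.72 against 0.06 over all genes. At an unadjusted p under 0.05 there were 10 positive and 0 negative members, where 3.46% and 4.51% of all genes tested were. At day 7 the level of the list ran from 0.85 to 1.03 in wild type and from 0.51 to 0.82 in knockout. At day 14 it ran from -1.73 to -0.66 in wild type and from -1.09 to -0.44 in knockout, where the groups overlap.

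Id3, an inhibitor of E proteins that is high in naive T cells, held 4.39, 3.77 and 2.81 CPM in wild type and 10.2, 9.99 and 9.74 CPM in knockout at day 14, from means of 23.7 and 23.1 CPM at day 7 (interaction 1.48 ± 0.34, adjusted p = 0.133). Ms4a4b, a relative of Ms4a6b, had means of 441 and 598 CPM at day 7 and 27.7 and 195 CPM at day 14 (wild type and knockout, interaction 2.38 ± 0.61, adjusted p = 0.201). Neither Id3 nor Ms4a4b passed the threshold, though in both the knockout libraries of day 14 lay above all wild-type libraries. The median of the list ran from 0.21 to 0.90 over the fits without 1 library, with its lowest value without knockout day 14 library 2.

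**Figure D5:**
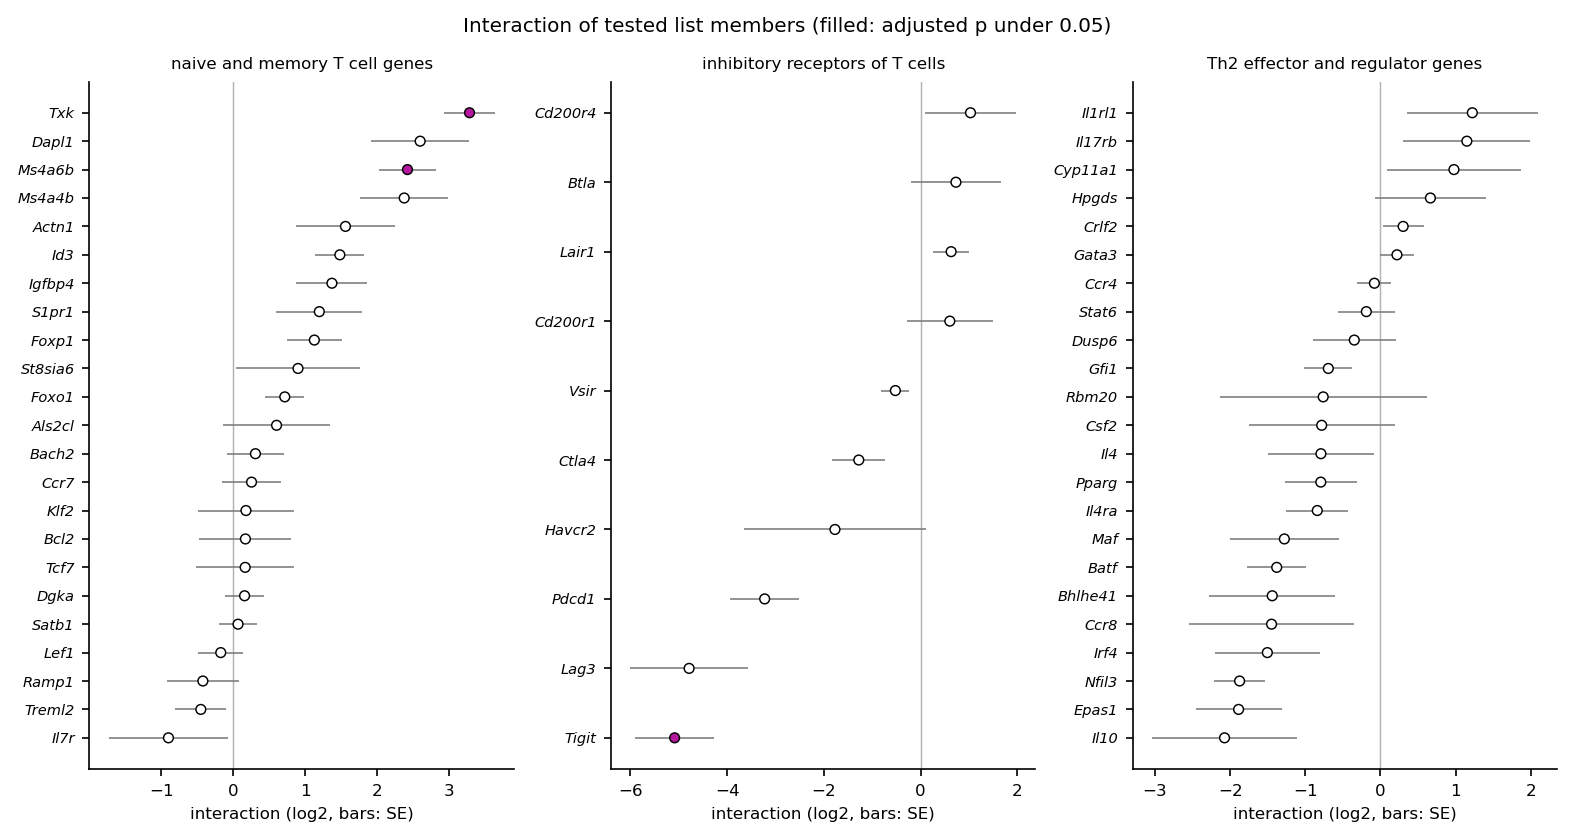
Interaction (log2, bars SE) of tested members of 3 lists, filled where the adjusted p was under 0.05 and leaving out members with 3 or fewer reads in a group and 1 member that is not reported here. Txk and Ms4a6b at 3.29 and 2.42 and Tigit at -5.09 are the filled points.

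Of 13 inhibitory receptor genes 10 were tested, with Tigit called (0.0259% of all genes tested were called negative) and 4 negative at an unadjusted p under 0.05 (4.51% of all genes). Pdcd1, which encodes PD-1, held 11.5, 15.7 and 14.2 CPM in wild type and 1.18, 3.49 and 3.11 CPM in knockout at day 14, from means of 0.713 and 1.27 CPM at day 7 (interaction -3.22 ± 0.71, adjusted p = 0.123). Lag3 held 2.04, 2.77 and 1.45 CPM against 0.0886, 0.395 and 0.0302 CPM at day 14, from means of 0.405 and 0.929 CPM (interaction -4.79 ± 1.22, adjusted p = 0.201). Ctla4 had means of 31.2 and 54.6 CPM at day 7 and 68.7 and 49.6 CPM at day 14, with overlap at day 14 (interaction -1.28 ± 0.54, adjusted p = 0.574, and -1.98 without knockout day 14 library 1). The other 6 members had interactions of both signs. The median was -0.90, and -0.06 without wild-type day 14 library 3.

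No member of the Th2 effector and regulator list was called by edgeR among 26 tested of 30, with 7 negative and 0 positive at an unadjusted p under 0.05 (4.51% and 3.46% of all genes tested). DESeq2 called 1 negative member, limma-voom with sample weights 2 positive and 1 negative, and limma-voom without weights 1 negative. Over all genes tested DESeq2 called 0.526% positive and 0.880% negative, limma-voom with sample weights 2.98% and 1.16%, and limma-voom without weights 0.0604% and 0.0345%. The median interaction was -0.79, also with the 3 genes that had 0 reads in a group set to 3 counts. The level of the list was below 0 in every library of day 7 and above 0 in every library of day 14. At day 14 that level ran from 0.675 to 1.867 in wild type and from 0.637 to 1.123 in knockout, where the groups overlap. The summed CPM of the list overlapped at day 7. At day 14 the sum ran from 9737 to 11629 CPM in wild type and from 3571 to 7031 CPM in knockout.

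Beside Nfil3, Epas1, for the hypoxia factor HIF-2 alpha, held 67.8, 97.4 and 106 CPM in wild type and 7.59, 35.4 and 27.7 CPM in knockout at day 14, from means of 7.94 and 7.67 CPM at day 7 (interaction -1.89 ± 0.57, adjusted p = 0.286). Batf, an AP-1 factor of helper T cells, had means of 37.0 and 63.1 CPM at day 7 and 128 and 83.8 CPM at day 14 (wild type and knockout, interaction -1.38 ± 0.40, adjusted p = 0.254). The libraries of Epas1 were apart at day 14 only, and those of Batf at day 7 only.

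The count of called cell division genes depended on wild-type day 14 library 3 and on the tool. Of 43 tested G2 and M phase genes edgeR called 0, with 40 of 43 positive (6456 of 11591 over all genes tested) and a median interaction of 1.23. At an unadjusted p under 0.05 7 were positive (3.46% of all genes tested). Without wild-type day 14 library 3 edgeR called 24 of 43, all positive, with a median of 3.36, where 2.31% of 11755 genes tested were called positive. Without that library and knockout day 7 library 4 it called 32 of 43 (2.18% of all genes). Wild-type day 14 library 3 was set apart by its level of these same genes, so a larger difference without it is built in. The counts without it are no separate support. DESeq2 on all libraries called 2, limma-voom with sample weights 32 and limma-voom without weights 0. Over all genes tested DESeq2 called 0.526% positive and 0.880% negative, and limma-voom with sample weights 2.98% and 1.16%.

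Cdc20, an activator of the complex that ends mitosis, held 25.8, 35.4 and 93.5 CPM in wild type and 172, 239 and 369 CPM in knockout at day 14, with the highest wild-type value in library 3. At day 7 its means were 23.5 CPM in wild type and 31.5 CPM in knockout, with 49.2 CPM in knockout library 4 (interaction 1.91 ± 0.57, adjusted p = 0.276). Cenpa, the centromeric histone, held 9.70, 10.6 and 12.3 CPM in wild type and 37.1, 36.4 and 57.1 CPM in knockout at day 14, from means of 20.3 and 28 CPM at day 7 (interaction 1.53 ± 0.37, adjusted p = 0.166). In Cenpa wild-type library 3 lay with the other wild-type libraries of day 14.

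Racgap1, a regulator of cytokinesis, had means of 60.7 and 51.3 CPM at day 7 and 55.4 and 166 CPM at day 14 (wild type and knockout, interaction 1.82 ± 0.53, adjusted p = 0.27). Foxm1, a transcription factor of mitotic genes, had means of 4.59 and 2.47 CPM at day 7 and 9.75 and 36.1 CPM at day 14, with overlap at day 14 (interaction 2.78 ± 0.82, adjusted p = 0.276).

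Of 40 S phase and DNA replication genes edgeR called 0, with 38 of 40 positive (6456 of 11591 over all genes tested) and a median interaction of 0.89. At an unadjusted p under 0.05 12 were positive (3.46% of all genes tested). Without wild-type day 14 library 3, set apart by its level of cell division genes, edgeR called 12. In that fit 2.31% of 11755 genes tested were called positive. DESeq2 called 0, limma-voom with sample weights 20 (2.98% of all genes tested were called positive and 1.16% negative) and limma-voom without weights 0. Rfc5, a clamp loader subunit, held 24.1, 32.1 and 40.6 CPM in wild type and 41.9, 86.3 and 113 CPM in knockout at day 14, from means of 27.0 and 30.4 CPM (interaction 1.15 ± 0.40, adjusted p = 0.385). Chaf1b, a histone chaperone subunit, had means of 56.9 and 48.7 CPM at day 7 and 97.4 and 192 CPM at day 14, with overlap (interaction 1.20 ± 0.35, adjusted p = 0.254).

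Interferon-stimulated and MHC class II genes were highest in knockout day 7 library 4. Of 50 interferon-stimulated genes 48 were tested and edgeR called 0, with 43 of 48 negative (5135 of 11591 over all genes tested). At an unadjusted p under 0.05 1 was negative (4.51% of all genes tested). The median was -0.89, and -0.20 without that library. Knockout day 7 library 4 was set apart by its level of these same genes, so values closer to 0 without it are built in. DESeq2 called 1 negative member (0.880% of all genes tested), and limma-voom called 0 with and without weights. Isg15, a ubiquitin-like interferon-induced protein, held 2.31, 6.61, 23.5 and 10.9 CPM in wild type and 56.2, 13.7, 37.7 and 318 CPM in knockout at day 7, and had means of 30.6 and 58.2 CPM at day 14 (interaction -2.37 ± 1.23, adjusted p = 0.683, and -0.82 without knockout day 7 library 4). The 6 tested MHC class II genes had a median of -1.58, and -0.87 without library 4. EdgeR called 0, with 3 negative at an unadjusted p under 0.05 (4.51% of all genes tested). DESeq2 called 1 (0.526% positive and 0.880% negative over all genes tested), and limma-voom 0 with and without weights. H2-Ab1 stood at 12.8 and 43.3 CPM at day 7 and 22.4 and 13.1 CPM at day 14 (interaction -2.54 ± 0.83, adjusted p = 0.34, and -1.73 without that library).

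These lists hold genes of antigen-presenting cells, so markers of such cells are given beside them. Of 16 myeloid and dendritic cell markers 7 passed the count filter, and Itgam, Itgax, Clec9a, Xcr1 and Mpeg1 had 0 reads in every library. The tested members had a median interaction of -0.98, with 4 of 7 negative and 3 positive. At an unadjusted p under 0.05 3 of 7 were negative and 0 positive (4.51% and 3.46% of all genes tested). Cd14 had 6 reads in wild type and 49 in knockout at day 7 (29 in knockout library 4), Lyz2 9 and 83 (48 in library 4) and Cd68 46 and 100 (43 in library 4). At day 14 Cd14 had 134 and 25 reads, Lyz2 17 and 4, and Cd68 241 and 327. Adgre1 and Mgl2 had positive interactions. Adgre1 had 142 and 146 reads at day 7 and 1194 and 1803 at day 14 in wild type and knockout. Mgl2 had 177 and 775 reads at day 7 and 28 and 166 at day 14. The Fc receptor gene Fcgr3 had 129 and 196 reads at day 7 and 154 and 47 at day 14 (interaction -2.57 ± 0.49, adjusted p = 0.0698). The summed level of that list ran from 79.6 to 114 CPM in wild type and from 123 to 285 CPM in knockout at day 7, and from 85.9 to 207 CPM and from 207 to 341 CPM at day 14. Nearly all of this sum was Ctss, for the protease cathepsin S, with means of 92.3 and 155 CPM at day 7 and 110 and 237 CPM at day 14. Among B cell markers Ebf1 and Fcer2a had 0 reads in every library. Igkc had 12 reads in wild type and 118 in knockout at day 7, Cd79b 118 and 176 (71 in knockout library 4) and Cd79a 55 and 80, and at day 14 Igkc had 0 in both, Cd79b 19 and 41 and Cd79a 16 and 6. The part of such cells in the interferon and MHC class II values was not tested.

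Immediate early genes of T cell activation had a median interaction of -0.73 over 27 tested of 30. EdgeR called 0, with 7 negative and 1 positive at an unadjusted p under 0.05 (4.51% and 3.46% of all genes tested). DESeq2 called 1 negative (0.880% of all genes), limma-voom with sample weights 2 positive and 1 negative (2.98% and 1.16%), and limma-voom without weights 0. Dusp4, a phosphatase that acts on MAP kinases, held 20.2, 18.7 and 19.1 CPM in wild type and 0.945, 5.04 and 4.58 CPM in knockout at day 14, from means of 1.05 and 2.19 CPM at day 7 (interaction -3.52 ± 0.95, adjusted p = 0.233). Junb, an AP-1 subunit, had means of 526 and 898 CPM at day 7 and 1044 and 709 CPM at day 14, apart at day 14 only (interaction -1.33 ± 0.39, adjusted p = 0.275). Myc, the growth regulator, was the positive one, with means of 626 and 594 CPM at day 7 and 492 and 937 CPM at day 14 (interaction 1.00 ± 0.30, adjusted p = 0.281).

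Other receptors and signals with a small p stood in lists with 0 edgeR calls. Ccr2, a chemokine receptor of effector T cells, held 20.4, 3.54 and 28.9 CPM in wild type and 270, 42.9 and 65.5 CPM in knockout at day 14, from means of 256 and 238 CPM at day 7 (interaction 2.95 ± 0.97, adjusted p = 0.35, and 1.72 without knockout day 14 library 1). Tnfrsf8, the TNF receptor family member CD30, held 44.6, 81.3 and 140 CPM in wild type and 2.92, 22.5 and 10.9 CPM in knockout at day 14, from means of 0.384 and 0.675 CPM (interaction -3.68 ± 0.92, adjusted p = 0.189). Csf1, the macrophage growth factor gene, had means of 38.6 and 36.8 CPM at day 7 and 316 and 108 CPM at day 14, apart at day 14 (interaction -1.48 ± 0.42, adjusted p = 0.249). In the chemokine receptor and trafficking list, which holds Ccr2 and Gpr183, 5 positive and 2 negative members of 29 had an unadjusted p under 0.05 (3.46% and 4.51% of all genes tested), and DESeq2 called 1 positive (0.526%) and limma-voom with sample weights 2 positive (2.98%).

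Sf3b3, the splicing factor gene named in the series title, had means of 718 and 413 CPM at day 7 and 545 and 417 CPM at day 14 in wild type and knockout. Its interaction was 0.41 ± 0.45 (adjusted p = 0.956, and from -0.027 to 0.63 over the fits without 1 library), and the libraries were apart at day 7 and overlapped at day 14. Of the 38 gene lists 34 had no member called by edgeR, and the 4 with one were the naive and memory, inhibitory receptor, mast cell and Th17 lists, the last through Batf3. Among 57 oxidative phosphorylation subunits (median 0.03) and 13 genes of the SF3a and SF3b complex (median 0.28), 0 had an unadjusted p under 0.05, and edgeR, DESeq2 and limma-voom called 0.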

How the data were processed

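Counts of paired-end RNA-seq reads were deposited by the authors for 14 libraries, 1 table each, and the column used is headed as a count, per the file headers. Per the submitters' processing notes, GSNAP and the build GRCm38 were used. How reads were counted, on which annotation and with what use of strand, is not stated in the labels, so genes that overlap another gene (among them Ms4a6b, Atp1b1, P2ry1, Zbtb8a and Txk) are uncertain. GENCODE M21 gave symbols to 22534 of 22598 genes. Libraries were grouped by their labels.

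From these counts, genes were filtered with filterByExpr (11591 left), scaled by TMM and fitted for all 4 groups in edgeR 4.0.16 (R 4.3.3) with the robust quasi-likelihood test. Contrasts gave the interaction and the difference at each day, adjusted by Benjamini-Hochberg at 0.05 over all genes tested. A standard error is the size of a log2 value divided by the square root of its F statistic, and the common biological coefficient of variation was 0.354. No pair of libraries of a group agreed within sampling noise. In simulated data (11469 genes, interactions of 2-fold and 4-fold in 100 genes each) the test recovered 0% and 42%, and called 1 unchanged gene.

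Described are every called gene, then the 12 genes per direction with the smallest p and 5 CPM in a group, up to 4 members per list with the smallest p, and the Argonautes and Sf3b3. The genes, the 38 lists (875 genes) and the tests were chosen with earlier results of these data known. Alternatives were other scalings, no filter or 5 CPM in 3 libraries, DESeq2 1.42.0, limma-voom (limma 3.58.1) with and without sample weights, a replicate block, a term for the set of table identifiers, a spline (5 degrees of freedom) in GC content and coding length, for the 99.6% of genes (11550) that have a coding sequence, each library left out in turn, and both libraries that stand apart left out. Some genes of the lists are not reported here by name.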

Additional observations from a re-analysis of the deposited data

Results flagged for a closer look

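The 10 genes called in the interaction are flagged because the effect of genotype differed between the days by the test of that difference. Their log2 interactions were 3.29 for Txk, 2.21 for Gramd3, 2.15 for P2ry1, 2.42 for Ms4a6b, 8.23 for Kit, 3.13 for Atp1b1, 4.13 for Zbtb8a, -5.09 for Tigit, -2.51 for Bspry and -3.84 for Batf3.

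There were 68 groups of 4 libraries (34 genes at day 7 in each genotype). Of these, 8 held a library far from the other libraries of its group by Dixon's criterion. Chance meets that criterion in about 1 of 20 independent groups. The 34 genes share their libraries and were chosen by their interaction p, so that rate is no reference for the 8 groups. Knockout day 7 library 4 was the outlying one in 6 of them, all as the highest of its group. It held 0.487 CPM of Zbtb8a, 15.8 CPM of Tigit, 5.14 CPM of Stom, 4.34 CPM of Atp6v0d2, 4.12 CPM of Fbxo2 and 2.48 CPM of Pdcd1. Without this library 10 genes were called in the interaction, 9 of them among the 10 called with it. Knockout day 7 library 1 was the highest of its group in Rpp25 at 1.29 CPM and in Gsn at 232 CPM.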

How the results depend on the processing

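The number of genes called in the interaction was 10. It was 163 with DESeq2, 479 with limma-voom and sample weights, 60 after removing a trend in GC and coding length and 327 without both libraries that stand apart, and each of these included the 10. With a term for the set of table identifiers it was 1. Leaving out 1 library gave 1 to 380. For the difference at day 7 the count of 11 was 6 with the stricter filter, 512 with DESeq2, 5075 with limma-voom and sample weights and 19 with the trend removed. For day 14 the count of 165 was 106, 993, 1959 and 451 in the same order, and 420 with limma-voom without weights, 79 with the set term, 2998 without both libraries and 42 to 2640 without 1 library. The cause was not tested. In the 34 genes described first, no alternative turned the sign of the interaction. It turned in Ago3, to 0.16 with limma-voom and sample weights, 0.33 without wild-type day 14 library 3 and 0.27 without both libraries. In Sf3b3 it turned to -0.027 without knockout day 14 library 2. Some other list members turned as well, among them the markers Cd79b, Cd68 (0.22 without both libraries) and Lyz2 (0.037 in a fit without 1 library). Over the fits without 1 library Ago3 ran from -0.32 to 0.33 and Sf3b3 from -0.027 to 0.63.

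With the replicate number as a block the interaction called 7 genes, 6 of them among the 10. Of 19 same-numbered pairs of libraries 7 had deviations correlated over 0.1 (range -0.456 to 0.417). Such correlations cannot show whether the numbers pair the libraries, and the main fit holds no term for a pairing. In simulated data of this size no 2-fold interaction was recovered, so an interaction of that size can be missed at this depth and spread.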

Other observations

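Ago1, Ago3, Ago4 and Zbtb8a all lie on chromosome 4. Of the 34 genes described first, 8 (23.5%) lie on chromosome 4, against 721 of 11591 genes tested (6.22%) and 63 of the 924 genes with an unadjusted interaction p under 0.05 (6.82%). Of the 10 called genes 2 do, Zbtb8a and Bspry. Zbtb8a lies 2.82 Mb from the Argonaute genes and Bspry 63.8 Mb. These are counts with no test.

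Nkg7, a protein of cytotoxic granules, had 79 and 86 reads over the libraries of day 7 in wild type and knockout, and 239 and 1755 at day 14. Nkg7 was not called by edgeR. Over the edgeR fits without 1 library its interaction ran from 1.95 to 2.96 (adjusted p from 0.0589 to 0.546). Of 14 tested cytotoxic granule and killer genes edgeR called 0, with 7 positive and 7 negative interactions and a median of -0.03. The knockout libraries of day 14 had 150, 619 and 986 reads of Nkg7. Tcrg-C1, a constant gene of the gamma T cell receptor chain, had 100, 354 and 578 reads in the same libraries and 17, 10 and 124 in wild type at day 14. These overlap, and its interaction ran from 0.55 to 3.25 over the fits without 1 library. The 5 tested genes of its list, gamma delta and unconventional T cell markers, had a median of -0.17, with 2 positive and 3 negative. At day 14 Trdc had 204 and 248 reads and Zbtb16 12 and 2 in wild type and knockout. Ncr1, Klra4 and Klra8, which mark NK cells, had 0 reads in every library. The part of such cells in the Nkg7 values was not tested. Ighm, the heavy chain gene of IgM, had 309359 and 305719 reads at day 7 and 69870 and 185501 at day 14 in wild type and knockout, while Ebf1 and Fcer2a were at 0.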
